A study of Homo sapiens with 9 samples.

Results

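The ATP-binding cassette (ABC) transporter genes of PANC-1 cells were described in a vector line and in lines that overexpress 1 of 2 organic ion transporters. Members are every gene whose symbol is ABC followed by a subfamily letter from A to G and a number. In all, 35 of the 16750 genes of the expression table had such a name. Of these, 31 reached 1 CPM in at least 3 of 9 libraries and were tested, among 14554 genes tested in all. The 4 members under that filter were ABCA6, ABCC6, ABCG5 and ABCG8. CPM are reads per 1e+06 of the library, on the scale the authors deposited. PANC-1 is an established human line from a carcinoma of the pancreatic duct. All 3 groups were transduced with a lentivirus and selected and grown in puromycin: the vector group with the empty plasmid pLV-EV, SLC22A10_OE with pLV-SLC22A10 and SLC22A15_OE with pLV-SLC22A15. Each group had 3 RNA sequencing libraries. The labels speak of stable clones and do not say how many clones a group holds or what promoter drives the transgene.

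ABC proteins use ATP to move substrates across membranes, mostly outward from the cytosol or into organelles, and the E and F subfamilies lack membrane domains and act on ribosomes. Subfamilies A and G hold the exporters of cholesterol and phospholipids, and C holds the exporters of glutathione, glucuronide and nucleotide conjugates. The only B members here, ABCB6 to ABCB10, and the D members are half-transporters of mitochondria, lysosomes and peroxisomes. In pancreatic carcinoma cells the family is best known for drug efflux and for cholesterol export under the liver X receptors (LXR), which are nuclear receptors for oxysterols.

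Library totals ran from 28.4 to 42.9 M reads (1 M is 1e+06), and a gene at 1 CPM held 27.8 to 43.4 reads. The deposited CPM did not sum to exactly 1e+06 per library. They summed to 993719 to 997583 in vector, 1.01e+06 to 1.02e+06 in SLC22A10_OE and 985574 to 989059 in SLC22A15_OE, so their scaling differed by group. SLC22A10 stood at 85.4 ± 5.53 CPM (SD, n = 3) in its own line, and SLC22A15 rose from 6.11 ± 0.571 CPM in vector to 75.9 ± 2.48 CPM in its own line. The carcinoma line markers VIM, KRT8, KRT18, KRT19 and SOX9 were over the filter, while KRT7, a keratin of ducts, reached no more than 0.563 CPM. Values of 1 of 9 acinar markers were at hand, CEL, at most 5.21 CPM, and of 1 of 6 endocrine markers, CHGA, and 2 of 7 hepatocyte markers, these 3 under the filter. The rest of those markers were not analysed here. Of 6 leukocyte markers 2 were over the filter, CD68 and CD14, and their sum was 16.1 to 19.7 CPM in vector, 31.0 to 33.7 CPM in SLC22A10_OE and 21.0 to 21.4 CPM in SLC22A15_OE. Of 6 markers of fibroblasts and endothelium 4 were over the filter, COL3A1 highest, with sums of 186 to 189.7 CPM in vector, 518 to 556 CPM in SLC22A10_OE and 236 to 239 CPM in SLC22A15_OE. These sums are nearly all COL3A1 (means of 183, 524 and 234 CPM in that order of groups), and the 4 did not move together. CDH5 stood at 1.11, 6.86 and 2.68 CPM, COL1A1 at 0.536, 5.01 and 0.414 CPM and COL1A2 at 2.94, 1.09 and 0.0961 CPM. The part of these marker levels in the results below was not tested. In 1 library of each group (vector 1, SLC22A10_OE 3 and SLC22A15_OE 1) mitochondrial ribosomal RNA took 0.00958% to 0.0151% of reads, against 0.0454% to 0.0843% in the partners. Nothing in the labels says that the libraries of a group came from separate cultures, so a p-value reflects the scatter among libraries alone, and that scatter could be technical. In bulk RNA, fewer cells with a transcript and less of it per cell cannot be told apart.

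The first comparison asked which ABC genes differed between SLC22A10_OE and vector. ABCA1 and ABCG1, the cholesterol exporters, had the largest rises on the log2(CPM + 1) scale, each over 8-fold in mean CPM. ABCA4, ABCA2, ABCC8 and ABCA8 followed on the log2 scale, though ABCC8 rose 8.40-fold in mean CPM, from 0.238 CPM. ABCG2, ABCE1, ABCA12 and ABCC2 fell most. A gene is written as called, risen or fallen where limma gave a Benjamini-Hochberg adjusted p under 0.05 over all genes tested. Changes are log2 fold changes on the log2(CPM + 1) scale, which understates the change of low genes. Values written as -fold are ratios of mean CPM. Of 31 members, 27 were called, 16 higher and 11 lower. ABCA8 and ABCC8, among the higher, passed the filter only through SLC22A10_OE. The filter thus favoured their calls here, in the counts by subfamily and between the lines. Over all genes tested 67.2% were called, 34.7% higher and 32.5% lower, so most genes passed this test. Counts over the gene lists below are to be read beside these shares. The groups did not overlap in 27 members, against 69.2% of all genes. A change of at least 0.58 was called in 15 members, against 25.6% of all genes. The median size of change was 0.51 in the members and 0.32 in all genes.

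In SLC22A15_OE against vector 10 members were called, 7 higher and 3 lower, where 20.4% of all genes were called, 10.8% higher and 9.58% lower. ABCA1, ABCG1 and ABCA4 rose again, and they were the 3 members called with a change of at least 0.58 (4.29% of all genes). The groups did not overlap in 14 members, against 34.7% of all genes. The median size of change was 0.17 in the members and 0.12 in all genes. Both comparisons use the same vector libraries, so their changes are not independent. ABCA1, ABCA4, ABCB8, ABCC3 and ABCG1 were called higher in both lines, and ABCA12, ABCC4 and ABCD3 lower in both. ABCB10 and ABCF2 were lower in SLC22A10_OE and higher in SLC22A15_OE. ABCA10, ABCA5, ABCB9 and ABCF3 were called in neither.

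The number of lower calls in SLC22A15_OE rested on single libraries: without vector library 2 it was 0, without vector library 3 it was 1, and without SLC22A15_OE library 1 it was 0. Those calls were ABCA12, ABCC4 and ABCD3. Pairing of the vector and SLC22A15_OE libraries by column number is not established. Vector library 2 correlated, in its deviations, more with SLC22A15_OE library 3 (0.35) than with library 2 (0.31). Libraries 1 of both groups correlated (0.57), but also with SLC22A10_OE library 3 (0.52 and 0.48), and these are the libraries low in mitochondrial ribosomal RNA. A replicate block by number was put into a fit of vector and SLC22A15_OE alone, chosen after seeing the data. There 17 members were called, 10 higher and 7 lower, against 40.7% of all genes. ABCA2, ABCA3, ABCA7, ABCC2, ABCC5 and ABCE1 were among those gained (limma Benjamini-Hochberg adjusted p from 1.22e-07 for ABCA7 to 0.0207 for ABCE1), on 2 residual degrees of freedom and a spread that limma pools over genes.

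**Figure D1:**
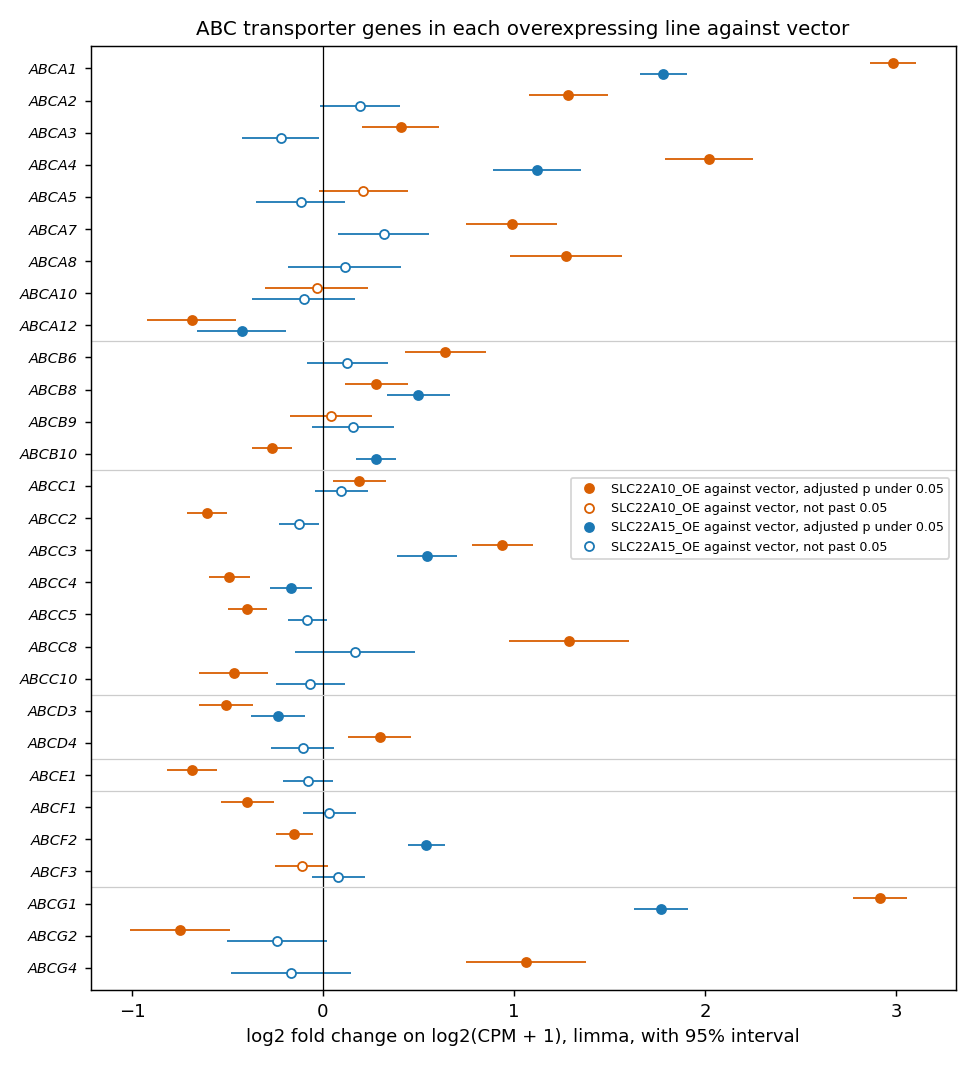
Log2 fold change against vector of tested ABC genes on log2(CPM + 1), with 95% intervals from limma, grouped by subfamily from A at the top to G. Orange marks SLC22A10_OE and blue SLC22A15_OE, with filled points for calls at an adjusted p under 0.05. ABCA1 and ABCG1 lie farthest right in both lines, and most blue points lie nearer 0 than the orange points beside them.

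By subfamily, A and G had the highest medians in SLC22A10_OE. Of 9 tested A genes 6 rose and 1 fell, with a median log2 fold change of 0.99, and of 3 tested G genes 2 rose and 1 fell, with a median of 1.06. Of 5 B genes 3 rose and 1 fell (median 0.28). Of 7 tested C genes 3 rose and 4 fell (median -0.40). ABCE1 and 2 of 3 F genes fell. The median over all genes was 0.00. In SLC22A15_OE the subfamily medians lay between -0.17 for G and 0.16 for B.

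The summed level of the members differed little between the groups beside that of single subfamilies. The sum over all 35 members was 1496 ± 6.66 CPM in vector, 1627 ± 46.0 CPM in SLC22A10_OE and 1601 ± 9.71 CPM in SLC22A15_OE. Subfamily A went from 207 ± 14.0 CPM in vector to 504 ± 25.2 CPM in SLC22A10_OE and 266 ± 18.1 CPM in SLC22A15_OE. Subfamily G went from 11.4 ± 0.558 to 67.4 ± 1.64 and 31.0 ± 1.97 CPM. Subfamily C went from 515 ± 2.06 to 389 ± 7.64 and 485 ± 0.958 CPM. These sums follow the most abundant members and were not tested.

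ABCA1 moves cholesterol and phospholipid from the plasma membrane to lipid-poor apolipoproteins, and ABCG1 moves sterol to mature high-density lipoprotein. In the RefSeq gene table (GRCh38.p14) ABCA1 spans chr9:104781006-104928155 on the minus strand and ABCG1 spans chr21:42199689-42297244 on the plus strand. The 250 bases before the RefSeq start of ABCA1 (chr9:104928156-104928405, minus strand, GRCh38.p14) are shown because ABCA1 is among the members that rose most and LXR binds near its start. Capitals mark an E-box (CACGTG) and, after it, a match to an LXR-type direct repeat, 2 copies of NGGTNA with 4 free bases between them, which lies here on the opposite strand.

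ABCA1 promoter: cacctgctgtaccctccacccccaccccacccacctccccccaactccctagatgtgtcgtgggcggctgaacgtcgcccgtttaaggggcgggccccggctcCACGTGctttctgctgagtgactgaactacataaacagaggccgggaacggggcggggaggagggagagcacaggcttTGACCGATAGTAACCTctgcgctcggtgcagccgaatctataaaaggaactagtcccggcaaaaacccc

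The E-box begins 147 bases and the repeat 69 bases before the start. Both strands of 300 bases, 250 before and 50 after each RefSeq start, were searched, and 27 of the 35 members had such a window. Some members, ABCB9 and ABCG2 among them, had windows at several starts. Shares below are per window and counts per member with a match in any window, so they cannot be set against each other directly. The repeat pattern, which was written with the site of ABCA1 known, was in 0.624% of 35116 promoter windows and among members in that of ABCA1 alone. The E-box was in 7.26% of windows and in those of 7 members: ABCA1, ABCA12, ABCB6, ABCB9, ABCC10, ABCF1 and ABCG2. Of these, ABCA1 and ABCB6 rose and ABCA12, ABCC10, ABCF1 and ABCG2 fell in SLC22A10_OE, so the E-box members did not move in 1 direction. A match is only a match of letters.

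ABCA1 stood at 14.9, 16.4 and 15.2 CPM in vector libraries 1 to 3, at 136, 126 and 127 CPM in SLC22A10_OE and at 55.5, 55.6 and 55.8 CPM in SLC22A15_OE. The 3 groups were fully apart, with vector lowest and SLC22A10_OE highest. The mean rose from 15.5 ± 0.771 CPM to 129 ± 5.66 CPM in SLC22A10_OE (8.36-fold, log2 fold change 2.98, SE 0.06, limma Benjamini-Hochberg adjusted p = 4.27e-13). It rose to 55.7 ± 0.151 CPM in SLC22A15_OE (3.59-fold, 1.78, SE 0.06, limma Benjamini-Hochberg adjusted p = 1.95e-10). The line difference was itself called (SLC22A15_OE against SLC22A10_OE -1.20, limma Benjamini-Hochberg adjusted p = 4.34e-09). NIPSNAP3B, which shares 9894 bases with the ABCA1 locus, rose by 1.26 in SLC22A10_OE and had 0.29, not called, in SLC22A15_OE. Strand handling in the counting was not given in the sources used here. Reads of the shared stretch therefore cannot be told apart, which also holds where ABCA2 (LINC02908), ABCA12 (SNHG31), ABCB9 (OGFOD2), ABCC5 (ABCC5-AS1), ABCC10 (DLK2) and ABCE1 (ANAPC10) share bases with another gene of the table.

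ABCG1 held 7.54, 7.37 and 7.29 CPM in the vector libraries, 61.7, 61.3 and 64.2 CPM in SLC22A10_OE and 29.6, 27.0 and 26.6 CPM in SLC22A15_OE. The order of the groups was that of ABCA1, again without overlap. Its mean of 7.40 ± 0.126 CPM rose to 62.4 ± 1.57 CPM (8.44-fold, 2.92, SE 0.07, limma Benjamini-Hochberg adjusted p = 2.31e-12) and 27.7 ± 1.64 CPM (3.74-fold, 1.77, SE 0.07, limma Benjamini-Hochberg adjusted p = 9.43e-10). For each of these single genes an exact two-sided permutation test of 3 libraries against 3 gave p = 0.1, the smallest the design allows.

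Other LXR target genes were listed apart from the ABC genes, and 9 of 10 were tested. In SLC22A10_OE 6 rose, 1 fell and 2 were not called, with a median of 0.54, and in SLC22A15_OE the counts were the same, with a median of 0.56. SCD, a fatty acid desaturase, held 286 ± 5.54 CPM in vector, 674 ± 12.2 CPM in SLC22A10_OE (1.24) and 508 ± 4.46 CPM in SLC22A15_OE (0.83). PLTP, the phospholipid transfer protein, held 10.1 ± 1.06, 38.4 ± 2.10 and 16.3 ± 0.982 CPM (1.83 and 0.64). MYLIP, a ubiquitin ligase, rose by 0.74 and 0.56, and SREBF1, a lipogenic transcription factor, by 0.54 and 0.71. SMPDL3A, a phosphodiesterase, fell in both lines (-0.36 and -0.45), and the list was put together with the changes of ABCA1 and ABCG1 known. The receptors themselves were named after their values were seen: NR1H3 was not called in either line (0.15 and 0.11), and NR1H2 rose by 0.27 in SLC22A10_OE and had -0.02 in SLC22A15_OE.

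**Figure D2:**
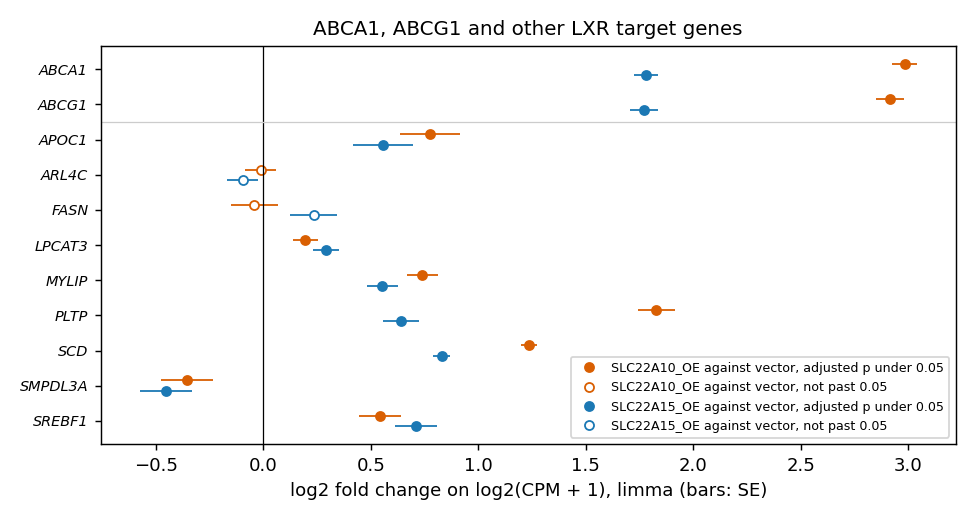
Log2 fold change against vector on log2(CPM + 1) of ABCA1 and ABCG1, above the line, and of 9 other LXR target genes, below it. Bars are SE, filled points have a limma adjusted p under 0.05, orange is SLC22A10_OE and blue SLC22A15_OE. ABCA1 and ABCG1 lie beyond all 9 other targets in both lines, and SMPDL3A lies below 0.

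Of the other genes of cholesterol carriage, 6 were tested, and 1 rose and 1 fell in SLC22A10_OE. NPC2, which carries cholesterol out of lysosomes, rose by 0.60 in SLC22A10_OE, and SCARB1, a lipoprotein receptor, fell there (-0.31). Among 17 tested transcription factors that act on ABC genes, 9 rose and 4 fell in SLC22A10_OE, and 2 rose and 2 fell in SLC22A15_OE, where 67.2% and 20.4% of all genes were called. PPARA, a nuclear receptor of fatty acid breakdown, changed by 1.19 in SLC22A10_OE and FOXO3 by 0.88. SREBF2, which drives sterol synthesis, rose in both lines (0.89 and 0.39), and AHR, a sensor of aromatic compounds, fell in both (-1.11 and -0.93). NFE2L2, the factor of the antioxidant response (-0.55), and YBX1 (-0.30) also fell in SLC22A10_OE.

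ABCG4, a close relative of ABCG1 that is best known in the brain, showed 1.20, 0.872 and 1.64 CPM in vector, 2.95, 4.01 and 4.03 CPM in SLC22A10_OE and 1.14, 0.936 and 0.852 CPM in SLC22A15_OE. Only SLC22A10_OE stood apart, and the other groups overlapped. The rise was from 1.24 ± 0.387 to 3.66 ± 0.619 CPM (1.06, SE 0.14, limma Benjamini-Hochberg adjusted p = 2.71e-05), and in SLC22A15_OE the difference was -0.17 (95% interval -0.48 to 0.15). ABCG1 and ABCG4 thus rose together in 1 line, and in the other only ABCG1 was called.

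ABCA4, the retinoid flippase of photoreceptors, held 2.43, 2.14 and 2.62 CPM in vector, 13.2, 13.2 and 12.0 CPM in SLC22A10_OE and 6.95, 6.84 and 5.41 CPM in SLC22A15_OE. Its groups had the order of ABCA1 and did not overlap. The means were 2.40 ± 0.245, 12.8 ± 0.681 and 6.40 ± 0.858 CPM, a rise of 5.32-fold (2.02, SE 0.11, limma Benjamini-Hochberg adjusted p = 4.55e-09) and of 2.67-fold (1.12, SE 0.11, limma Benjamini-Hochberg adjusted p = 7.21e-06).

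ABCA2 is an endolysosomal transporter linked to sphingolipid handling. It held 88.5, 71.8 and 76.0 CPM in vector, 178, 187 and 214 CPM in SLC22A10_OE and 104, 83.5 and 83.8 CPM in SLC22A15_OE. SLC22A10_OE lay above all other libraries, and the highest vector library lay within SLC22A15_OE. Its mean rose from 78.8 ± 8.68 to 193 ± 18.7 CPM (2.45-fold, 1.29, SE 0.10, limma Benjamini-Hochberg adjusted p = 1.18e-07). In SLC22A15_OE the change was 0.19 (95% interval -0.02 to 0.40).

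ABCA7, a phospholipid transporter close in sequence to ABCA1, held 51.6, 38.9 and 43.3 CPM in vector and 78.8, 89.8 and 99.1 CPM in SLC22A10_OE. In SLC22A15_OE it held 63.4, 52.6 and 51.1 CPM, and 1 of these libraries lay just under the highest vector library. The mean rose from 44.6 ± 6.48 to 89.2 ± 10.1 CPM in SLC22A10_OE (0.99, SE 0.11, limma Benjamini-Hochberg adjusted p = 4.29e-06). In SLC22A15_OE the change of 0.32 was not called (limma Benjamini-Hochberg adjusted p = 0.0586), and without vector library 1 it was 0.43 and called (limma Benjamini-Hochberg adjusted p = 0.00592).

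ABCA3, the lipid transporter of lamellar bodies in the lung, held 39.3, 33.2 and 32.7 CPM in vector, 47.5, 43.0 and 49.8 CPM in SLC22A10_OE and 33.1, 26.3 and 30.5 CPM in SLC22A15_OE. SLC22A10_OE was again the highest group, and SLC22A15_OE overlapped vector. It rose by 0.41 in SLC22A10_OE (SE 0.09, limma Benjamini-Hochberg adjusted p = 0.00183) and had -0.22 in SLC22A15_OE (limma Benjamini-Hochberg adjusted p = 0.12).

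ABCA12, the lipid transporter of keratinocyte lamellar granules, fell. It held 2.12, 2.11 and 1.72 CPM in vector, 0.801, 0.887 and 0.863 CPM in SLC22A10_OE and 1.11, 1.33 and 1.22 CPM in SLC22A15_OE. The groups did not overlap, with vector highest. The changes were -0.69 (SE 0.11, limma Benjamini-Hochberg adjusted p = 9.08e-05) and -0.43 (SE 0.11, limma Benjamini-Hochberg adjusted p = 0.0129), at no more than 75 reads in a library. In SLC22A15_OE the call was lost without vector library 2 (limma Benjamini-Hochberg adjusted p = 0.0529), without SLC22A15_OE library 1 (limma Benjamini-Hochberg adjusted p = 0.0506) and without the 3 libraries low in mitochondrial ribosomal RNA (-0.36, limma Benjamini-Hochberg adjusted p = 0.0825).

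ABCA5, ABCA6, ABCA8 and ABCA10 lie in 1 cluster on chromosome 17, and they did not move together. ABCA8, an exporter tied to sphingomyelin synthesis, held 0.308, 0.338 and 0.451 CPM in vector, 2.61, 2.69 and 1.69 CPM in SLC22A10_OE and 0.572, 0.468 and 0.392 CPM in SLC22A15_OE. The libraries of SLC22A10_OE were far above the rest, at no more than 101 reads. ABCA8 passed the filter only through these libraries, so the filter favoured its separation and its call. The mean rose from 0.365 ± 0.0755 to 2.33 ± 0.555 CPM (6.38-fold, 1.27, SE 0.14, limma Benjamini-Hochberg adjusted p = 3.03e-06). ABCA5 had 0.21 (95% interval -0.02 to 0.44) and ABCA10 -0.03 (-0.30 to 0.24) in the same comparison. ABCA10 held 13.1 to 18.9 CPM over the 9 libraries, and ABCA6 stayed at or under 0.844 CPM. ABCA5 and ABCA10 share 538 bases at their ends.

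Among the half-transporters of subfamily B, ABCB6 rose most. ABCB6, a porphyrin transporter of mitochondria and endolysosomes, held 15.1, 14.0 and 14.9 CPM in vector, 22.7, 23.4 and 24.2 CPM in SLC22A10_OE and 19.5, 14.6 and 14.6 CPM in SLC22A15_OE. SLC22A10_OE lay above all others, while SLC22A15_OE held 1 high library, library 1. The rise was 0.64 (SE 0.10, limma Benjamini-Hochberg adjusted p = 8.01e-05), and SLC22A15_OE had 0.13 (95% interval -0.09 to 0.34). ABCB10, which supports heme synthesis in the inner mitochondrial membrane, fell from 67.1 ± 1.19 to 55.6 ± 1.35 CPM in SLC22A10_OE (-0.27) and rose to 81.5 ± 1.53 CPM in SLC22A15_OE (0.28), with the 3 groups apart. Of 10 tested genes within 1 Mb of ABCB10, 5 were higher and 2 lower in SLC22A10_OE (median 0.19), and 6 were higher and 0 lower in SLC22A15_OE (median 0.34), and the part of that region was not tested. ABCB9, a lysosomal peptide transporter, held 15.9 to 22.3 CPM and was not called in any comparison. Of 13 listed genes of heme and iron-sulfur cluster synthesis, 4 rose and 2 fell in SLC22A10_OE, and 1 rose and 1 fell in SLC22A15_OE, shares called below the 67.2% and 20.4% of all genes. PPOX, an enzyme late in heme synthesis, rose by 0.94 and NFS1, a cysteine desulfurase, by 0.36 in SLC22A10_OE, while GLRX5, a mitochondrial glutaredoxin, had -0.28. In SLC22A15_OE the gene that rose was SLC25A37, a mitochondrial iron importer (0.24), and the one that fell was CPOX, a heme enzyme (-0.30).

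Subfamily C split. The canalicular exporter ABCC2 and the nucleotide exporters ABCC4 and ABCC5 fell in SLC22A10_OE, while ABCC3, ABCC8 and ABCC1 rose. ABCC2, which exports bilirubin glucuronides and other conjugates across apical membranes, held 179.9, 197 and 193 CPM in vector, 120.3, 126 and 126 CPM in SLC22A10_OE and 168, 176 and 177 CPM in SLC22A15_OE. All vector libraries lay above both overexpressing lines. It fell by 0.61 in SLC22A10_OE (SE 0.05, limma Benjamini-Hochberg adjusted p = 2.01e-07), and the change of -0.13 in SLC22A15_OE was not called (limma Benjamini-Hochberg adjusted p = 0.0842), although the groups did not overlap. It was called with median centring (-0.15, limma Benjamini-Hochberg adjusted p = 0.0437), without vector library 1 (-0.17, limma Benjamini-Hochberg adjusted p = 0.0207), without the 3 libraries low in mitochondrial ribosomal RNA (-0.14, limma Benjamini-Hochberg adjusted p = 0.00696) and with a term for them (limma Benjamini-Hochberg adjusted p = 0.00245).

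ABCC3, the basolateral exporter of glucuronides and bile salts, held 10.0, 10.0 and 9.94 CPM in vector, 20.6, 18.7 and 21.0 CPM in SLC22A10_OE and 15.1, 15.4 and 14.6 CPM in SLC22A15_OE. The 3 groups were apart in the order of ABCA1. The rises were 2.01-fold (0.94, SE 0.07, limma Benjamini-Hochberg adjusted p = 1.65e-07) and 1.51-fold (0.55, SE 0.07, limma Benjamini-Hochberg adjusted p = 0.000133). ABCC2 and ABCC3, an apical and a basolateral exporter of similar conjugates, thus moved in opposite directions in SLC22A10_OE.

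ABCC4, an exporter of cyclic nucleotides and prostaglandins, went from 84.8 ± 0.999 CPM in vector to 60.2 ± 2.67 CPM in SLC22A10_OE (-0.49) and 75.5 ± 1.76 CPM in SLC22A15_OE (-0.17). With a replicate block over all 9 libraries the call in SLC22A15_OE was lost (limma Benjamini-Hochberg adjusted p = 0.0512), and with the block in the 2 groups compared it stood (limma Benjamini-Hochberg adjusted p = 0.000163). ABCC5, another exporter of cyclic nucleotides, went from 159 ± 3.01 to 120.4 ± 5.62 CPM in SLC22A10_OE (-0.40) and had -0.08 in SLC22A15_OE. ABCC10, a broad drug exporter, fell from 43.7 ± 4.44 to 31.3 ± 2.02 CPM (-0.47), and had -0.07 in SLC22A15_OE. ABCC1, the exporter of glutathione conjugates and leukotrienes, rose from 26.3 ± 0.821 to 30.2 ± 1.80 CPM (0.19, limma Benjamini-Hochberg adjusted p = 0.0179). With each library centred on its median, a scaling that moved all changes of this comparison by -0.12, the rise of ABCC1 was 0.07 and not called (limma Benjamini-Hochberg adjusted p = 0.338). Its call was also lost without vector library 3 (limma Benjamini-Hochberg adjusted p = 0.0616) and without SLC22A10_OE library 3 (limma Benjamini-Hochberg adjusted p = 0.0815).

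ABCC8 is no pump. It encodes the sulfonylurea receptor, the regulatory subunit of the ATP-sensitive potassium (KATP) channel of endocrine cells. It held 0.123, 0.113 and 0.477 CPM in vector, 1.99, 1.80 and 2.19 CPM in SLC22A10_OE and 0.603, 0.234 and 0.322 CPM in SLC22A15_OE. The SLC22A10_OE libraries were all above the rest, at no more than 77 reads, and the other groups overlapped. ABCC8 passed the filter only through SLC22A10_OE, so the filter favoured this separation and the call. The mean went from 0.238 ± 0.208 to 2.00 ± 0.196 CPM (8.40-fold, 1.29, SE 0.15, limma Benjamini-Hochberg adjusted p = 5.05e-06). KCNJ11, which encodes the pore of that channel, rose from 1.06 ± 0.0659 to 4.25 ± 0.249 CPM in the same line (1.35) and had -0.06 in SLC22A15_OE. CHGA, the 1 of 6 endocrine markers with values here, stood at 0.0720 to 0.172 CPM in SLC22A10_OE and at 0.478 to 1.06 CPM in vector.

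Genes that supply or share the substrates of subfamily C were read from 2 lists. Of 14 genes of glutathione synthesis and conjugation, 10 rose and 4 fell in SLC22A10_OE (median 0.46), and 3 rose and 3 fell in SLC22A15_OE (median -0.01). GSTA4, a transferase of lipid aldehydes, rose by 0.89, GSTM4 by 0.92 and the microsomal MGST2 by 1.02 in SLC22A10_OE, and GSTK1 rose in both lines (0.86 and 0.56). GCLC (-0.21) and GCLM (-0.36), the subunits of the first enzyme of glutathione synthesis, fell in SLC22A10_OE with GSTO1 (-0.13) and MGST1 (-0.17). Of 7 tested SLCO genes, which encode organic anion uptake carriers, 5 fell and 1 rose in SLC22A10_OE (median -0.64), and 3 fell and 0 rose in SLC22A15_OE (median -0.29). SLCO1C1, a thyroid hormone carrier, held 15.7 ± 0.898 CPM in vector and 3.92 ± 0.777 CPM in SLC22A10_OE (-1.78). SLCO1B3, known as a hepatic carrier, held 97.6 ± 7.04, 62.2 ± 1.37 and 79.9 ± 7.76 CPM in vector, SLC22A10_OE and SLC22A15_OE and fell in both lines (-0.64 and -0.29), as did SLCO1A2 (-0.89 and -0.38) and SLCO1B1 (-1.09 and -0.57). SLCO2A1, a prostaglandin carrier, was the 1 that rose (1.06). SLCO2A1 passed the filter only through SLC22A10_OE and SLCO1A2 only through vector, so the filter favoured their calls.

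ABCD3, which imports branched-chain and dicarboxylic acyl-CoA into peroxisomes, fell from 112 ± 8.05 to 78.6 ± 4.85 CPM in SLC22A10_OE (-0.51) and to 95.05 ± 4.85 CPM in SLC22A15_OE (-0.23). ABCD4, a lysosomal exporter of cobalamin, rose from 37.7 ± 2.56 to 46.6 ± 4.93 CPM in SLC22A10_OE (0.30). Of 8 listed peroxisomal genes, 7 rose and 1 fell in SLC22A10_OE (median 0.24). SCP2, a thiolase and sterol carrier, rose by 0.47, HSD17B4, the bifunctional beta-oxidation enzyme, by 0.40 and PEX19, a chaperone of peroxisomal membrane proteins, by 0.36. The 1 that fell was PEX3 (-0.16), the membrane receptor of PEX19.

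ABCE1 splits ribosomes into subunits after termination and was the highest member per length. It held 52.9 CPM per kb of exon in vector, where ABCC2 followed with 30.9, ABCD3 with 30.0 and ABCF2 with 29.9 CPM per kb. The 250 bases before its RefSeq start (chr4:145098061-145098310, plus strand, GRCh38.p14) are shown as the counterpart of ABCA1, from a member that fell. Capitals mark a cyclic AMP response element (CRE, TGACGTCA).

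ABCE1 promoter: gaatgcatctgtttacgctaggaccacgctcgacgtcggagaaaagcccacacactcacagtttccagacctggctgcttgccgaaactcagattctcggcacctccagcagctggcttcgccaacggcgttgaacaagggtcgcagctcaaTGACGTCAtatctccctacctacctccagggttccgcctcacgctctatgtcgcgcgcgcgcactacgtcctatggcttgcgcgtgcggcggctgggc

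The CRE begins 98 bases before the start, and 1.85% of promoter windows hold these letters, among members that of ABCE1 alone. A core of the antioxidant response element (TGACNNNGC) was in 13.3% of windows and in those of 11 members, of which ABCA2, ABCA3, ABCB6, ABCD4 and ABCG4 rose and ABCC10, ABCC4, ABCF1 and ABCG2 fell in SLC22A10_OE. In ABCB6 that core overlaps the E-box. Here too the share is per window and the count per member.

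ABCE1 held 194.6, 218 and 209.8 CPM in vector, 131, 129 and 126 CPM in SLC22A10_OE and 179, 204 and 207 CPM in SLC22A15_OE. SLC22A10_OE lay below all other libraries, and SLC22A15_OE overlapped vector. It fell by 0.69 in SLC22A10_OE (SE 0.06, limma Benjamini-Hochberg adjusted p = 5.21e-07) and had -0.08 in SLC22A15_OE (95% interval -0.21 to 0.05). The 6 listed genes of ribosome recycling and termination all fell in SLC22A10_OE (median -0.29, against 32.5% of all genes called lower), and ETF1, HBS1L and PELO fell in SLC22A15_OE. ETF1, the release factor that reads stop codons, went from 637 ± 25.8 to 369 ± 13.3 CPM (-0.78), EIF6, which keeps the large subunit free, had -0.65, PELO, which rescues stalled ribosomes, -0.36 and GSPT1, the partner of ETF1, -0.22.

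The F subfamily encodes soluble ATPases of translation. ABCF2 held 109, 105 and 103 CPM in vector, 94.2, 97.6 and 94.1 CPM in SLC22A10_OE and 156, 155 and 153 CPM in SLC22A15_OE. The 3 groups were apart, with SLC22A10_OE lowest and SLC22A15_OE highest. Its changes were -0.15 (SE 0.04, limma Benjamini-Hochberg adjusted p = 0.00884) and 0.54 (SE 0.04, limma Benjamini-Hochberg adjusted p = 1.86e-06). ABCF1, which binds initiation factor complexes, fell from 38.2 ± 0.722 to 28.8 ± 2.19 CPM (-0.40) and had 0.03 in SLC22A15_OE. ABCF3 had -0.11 (95% interval -0.25 to 0.03) and 0.08 (-0.06 to 0.22), neither called.

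ABCG2, the breast cancer resistance protein that exports drugs and urate, held 1.91, 1.66 and 1.88 CPM in vector, 0.749, 0.744 and 0.540 CPM in SLC22A10_OE and 1.40, 1.69 and 1.11 CPM in SLC22A15_OE. SLC22A10_OE lay below all other libraries, at no more than 71 reads in any library of the 3 groups. The mean fell from 1.82 ± 0.136 to 0.678 ± 0.120 CPM, 0.373 times the vector level (-0.75, SE 0.12, limma Benjamini-Hochberg adjusted p = 0.000119). In SLC22A15_OE the change was -0.24 (95% interval -0.50 to 0.02).

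**Figure D3:**
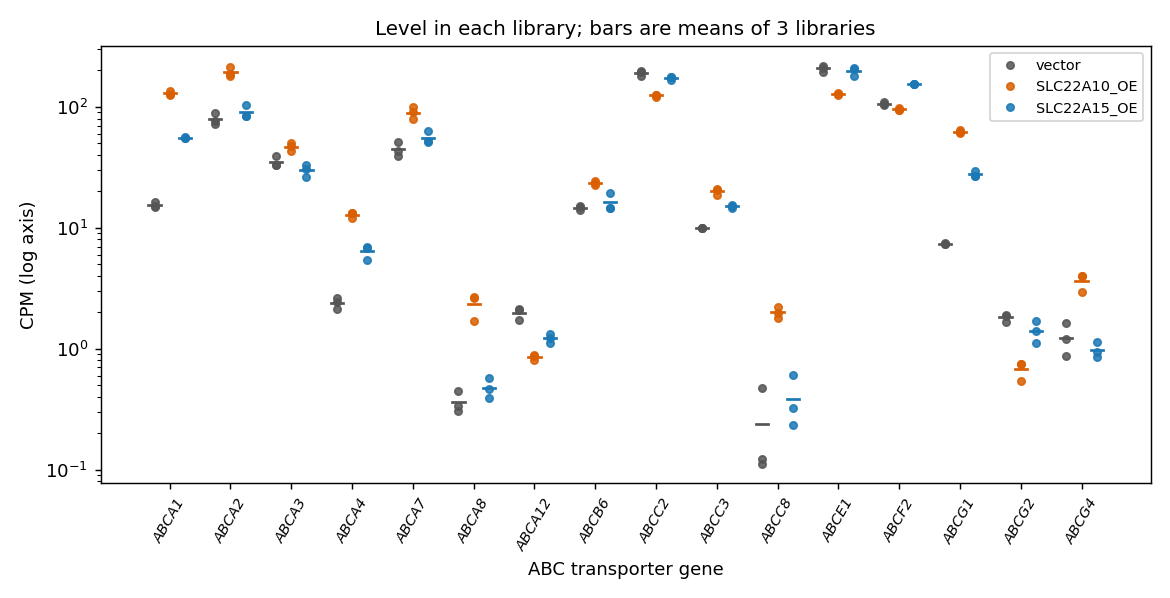
CPM on a log axis of members called with a change of at least 0.58 in any of the 3 comparisons, in each of 9 libraries, with bars at the mean of 3 libraries. Grey is vector, orange SLC22A10_OE and blue SLC22A15_OE. ABCA1, ABCA4, ABCC3 and ABCG1 show grey lowest and orange highest, while ABCE1 and ABCG2 show orange lowest.

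The members under the filter were low throughout. ABCA6 reached no more than 0.844 CPM, ABCC6 1.17, ABCG5 0.699 and ABCG8 0.675 CPM, or at most 51 reads. With a filter at 0.5 CPM, ABCG8, the partner of ABCG5 in sterol export into bile, was tested. It had -0.46 in SLC22A10_OE (limma Benjamini-Hochberg adjusted p = 0.00523). ABCG8 passed that filter only through vector, at no more than 24 reads, so the filter favoured this fall. ABCC6 has near-identical pseudogene copies, so its reads and those of ABCC6P1 are uncertain. ABCC6P1 itself went from 0.310 ± 0.124 to 1.58 ± 0.148 CPM in SLC22A10_OE (0.98), the only group through which it passed the filter. Of 5 tested ABC genes outside the name pattern, ABCC6P1 rose and TAP2, an antigen peptide transporter (-0.68), and the pseudogene ABCA11P (-0.36) fell in SLC22A10_OE. In SLC22A15_OE these 3 had 0.15, -0.09 and -0.08, none of them called.

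ABCB8 and ABCF2 lie 164 kb apart on chromosome 7, in a region where most genes were higher in both lines. ABCB8, a half-transporter of the inner mitochondrial membrane, rose from 37.3 ± 3.50 to 45.4 ± 3.30 CPM in SLC22A10_OE (0.28) and to 53.0 ± 2.64 CPM in SLC22A15_OE (0.50). With median centring its change in SLC22A10_OE was 0.16 and not called (limma Benjamini-Hochberg adjusted p = 0.0683). Of 22 other tested genes within 1 Mb of ABCF2, 17 rose and 0 fell in SLC22A10_OE, with a median of 0.63, and 16 rose and 0 fell in SLC22A15_OE, with a median of 0.55. ABCF2 itself had 0.54 in SLC22A15_OE, close to that median, and -0.15 in SLC22A10_OE, below it. ABCB8 had 21 such neighbours, of which 15 rose in each line (medians 0.67 and 0.55). The part of the region in the changes of these 2 genes was not tested.

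**Figure D4:**
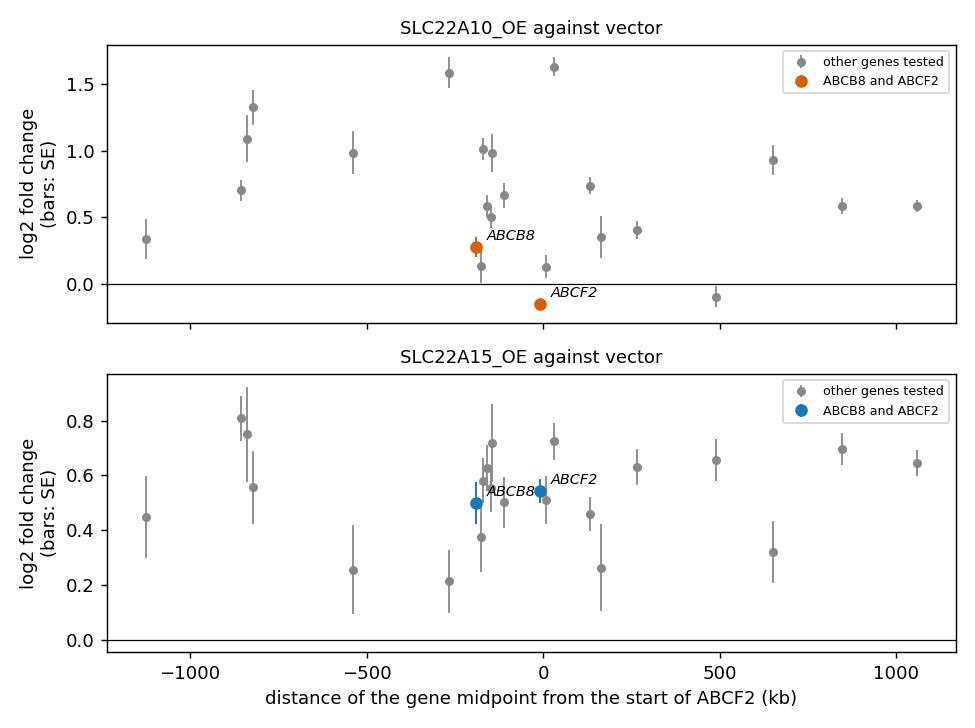
Log2 fold change on log2(CPM + 1), with SE bars, of ABCB8, ABCF2 (coloured) and the other tested genes within 1 Mb (grey), by distance of the gene midpoint from the start of ABCF2 in kb. The upper panel is SLC22A10_OE and the lower SLC22A15_OE against vector. In the lower panel all genes lie above 0, and in the upper panel ABCF2 lies below 0 while most of its neighbours lie above.

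The neighbours of ABCA1, ABCG1 and ABCA4 had medians below 0 in both lines. The 8 tested neighbours of ABCA1 had medians of -0.07 in SLC22A10_OE and -0.05 in SLC22A15_OE, and the 15 of ABCG1 had -0.06 and -0.14. The 19 neighbours of ABCA4 had -0.26 and -0.10. Around ABCC3, ABCA7 and ABCB6, which rose in SLC22A10_OE, more genes rose than fell in that line. Of 31 neighbours of ABCC3, 17 rose and 7 fell (median 0.23), of 66 of ABCA7, 30 rose and 8 fell (median 0.20), and of 34 of ABCB6, 16 rose and 9 fell (median 0.18). Their own changes were 0.94, 0.99 and 0.64. Between the lines 19 of the 31 neighbours of ABCC3 were lower in SLC22A15_OE (median -0.31), with -0.39 for ABCC3. ABCA4 and ABCD3 lie 264 kb apart on chromosome 1, and ABCA4 rose while ABCD3 fell in both lines.

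The lines were also compared directly, as SLC22A15_OE against SLC22A10_OE. Of 31 members 28 were called, 13 higher and 15 lower, where 62.9% of all genes were called, 30.8% higher and 32.1% lower. ABCA1 (-1.20), ABCG4 (-1.23), ABCA8 (-1.16), ABCG1 (-1.14), ABCC8 (-1.12) and ABCA2 (-1.09) were lower in SLC22A15_OE by more than 1. ABCF2 (0.69), ABCE1 (0.61), ABCB10 (0.54) and ABCG2 (0.51) were higher by the most. ABCA10, ABCB9 and ABCC1 were not called, and for ABCA10 and ABCC1 the sign turned with median centring. The call for ABCA12 (0.26, limma Benjamini-Hochberg adjusted p = 0.049) was lost in 14 of 19 other settings.

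In 14 of 31 tested members no pair of the 3 groups overlapped, against 21.1% of all genes. In 5 of them (ABCA1, ABCA4, ABCC1, ABCC3 and ABCG1) vector was lowest and SLC22A10_OE highest with SLC22A15_OE between. In 5 (ABCA12, ABCC2, ABCC4, ABCC5 and ABCD3) the order was the reverse. SLC22A10_OE was lowest and SLC22A15_OE highest in ABCB10 and ABCF2, and ABCB8 and ABCD4 had orders of their own.

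The libraries low in mitochondrial ribosomal RNA moved with some members. Such a library was the highest of its group in all 3 groups for 11 of 31 members, against 22.2% of all genes, among them ABCA2, ABCA3, ABCA7, ABCB6, ABCB8, ABCC5 and ABCG1. It was the lowest in all 3 groups for 5 members, ABCA5, ABCC4, ABCD3 and ABCE1 among them, against 20.7% of all genes. Without these 3 libraries 28 members were called in SLC22A10_OE (16 higher, 12 lower), 13 in SLC22A15_OE (9 higher, 4 lower) and 27 between the lines. The shares of all genes called in that setting are not given here, so these counts cannot be read as particular to the members.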

How the data were processed

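Values came from strand-specific, ribosomal RNA-depleted libraries, per the labels' protocols. The authors deposited CPM per gene and library, and a table per overexpressing line whose columns are, per the file headers, log2 fold changes, mean log2 CPM, a p-value, an FDR, a −log10 column and a threshold score. Submitters' processing notes name edgeR and the builds hg38 and mm9 without roles. Aligner, annotation and strand use in counting were not given in the sources used here. In the authors' deposited tables, 28 members had an FDR under 0.05 in SLC22A10_OE (16 higher, 12 lower) and 10 in SLC22A15_OE (7 higher, 3 lower).

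For the tests, log2(CPM + 1) entered limma 3.58.1 (R 4.3.3) with a mean trend, all 9 libraries in 1 fit and 6 residual degrees of freedom, two-sided, with Benjamini-Hochberg adjustment over 14554 genes and a threshold of 0.05. Whole reads were recovered from the CPM (100% of values within 0.1 read) for edgeR 4.0.16 and DESeq2 1.42.0, which served as alternatives. The procedure was tested on simulated data. Columns carry the numbers 1 to 3 and titles the suffixes A1, A2 and B1, which could not be matched. Deviations of same-numbered vector and SLC22A15_OE libraries correlated (0.57, 0.31 and 0.19), while those of SLC22A10_OE with same-numbered libraries ran from -0.41 to 0.14. The block in vector and SLC22A15_OE alone was added on that ground, not from the labels. Libraries 2 and 3 of these groups correlated about as much across numbers (0.35 and 0.16), so pairing by number is not established. Of the genes, 187 had no symbol. The members and the 10 gene lists, with 103 genes, were chosen with earlier results of these data known. Members called with a change of at least 0.58 in any comparison are given library by library, and of each list up to 4 called genes with the smallest adjusted p against vector. Genes named beyond that rule (NR1H2, NR1H3, PEX3, SLC25A37, CPOX, GCLC, GCLM, GSTO1, MGST1, SLCO1B1, NFE2L2, YBX1, HBS1L) were chosen after their values were seen. Positions and promoter windows are from RefSeq (GRCh38.p14), and exon lengths from GENCODE. Some members and list genes are counted but not reported here by name.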

Additional observations from a re-analysis of the deposited data

How the results depend on the processing

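Of the values recomputed for the 17 members given library by library, 948 kept direction and side of the threshold over 20 settings, 17 lost a call, 21 gained one and 0 turned sign. In SLC22A10_OE against vector, leaving out each library gave 27 called members throughout, with 15 to 16 higher and 11 to 12 lower. In SLC22A15_OE against vector it gave 7 to 13 called members, 7 to 9 higher and 0 to 4 lower, and between the lines 24 to 27, with 10 to 12 higher and 14 to 15 lower. With a term for the 3 libraries low in mitochondrial ribosomal RNA, chosen after seeing the data, 16 members were called in SLC22A15_OE, 6 of them lower. The cause was not tested. Without the share of all genes called with that term, which is not given here, the gain cannot be read as particular to the members. With a replicate block by column number, 27 members were called in SLC22A10_OE, 9 in SLC22A15_OE and 27 between the lines. ABCC4 lost its call in SLC22A15_OE (limma Benjamini-Hochberg adjusted p = 0.0512). With the replicate block in vector and SLC22A15_OE only, where pairing by number is not established, 17 members were called, 7 of them lower. In that fit 40.7% of all genes were called. Shares of all genes are given here for the main fit and this block alone. EdgeR gave 27, 10 and 28 called members and DESeq2 27, 11 and 27. Median centring gave 26 (14 higher, 12 lower), 11 and 27. Depth limits ABCA12, ABCA8, ABCC8 and ABCG2 most, at 71 to 101 reads in their highest library.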
